A study of Bos taurus and Bos frontalis with 6 samples.

Results

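Myosin heavy chains are the motor proteins of the thick filament, and an adult muscle fibre is typed by the one it makes. MYH7 encodes the slow chain of oxidative, fatigue-resistant fibres, which is also the main chain of the heart ventricle. MYH2 encodes the fast chain of oxidative fibres (type 2A), and MYH1 the faster chain of more glycolytic fibres (type 2X). A muscle is a mosaic of these fibres, many of them hybrids of neighbouring types, and the mix bears on contraction speed, metabolism and meat colour. The 3 genes were chosen by identifier, ENSBTAG00000009703 for MYH7, ENSBTAG00000007090 for MYH2 and ENSBTAG00000018204 for MYH1, from a table of 27270 cattle gene identifiers, and all 3 of 3 were among the 14112 genes with enough counts to be tested.

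The muscle studied was the longissimus dorsi, which runs along the spine and gives the loin. Its RNA was sequenced from 3 samples of Gayal (Bos frontalis) and 3 of Banna cattle (Bos taurus), with an age of 3.5 ± 0.5 years in all labels and no treatment. The labels name no separate animals, so p-values measure the spread between these samples. The series title sets them side by side for their beef quality. A deposited sheet puts Banna replicates 1 and 2 and Gayal replicate 1 in batch A and the other 3 libraries in batch B, without saying what a batch is. It also gives a fibre class, coarse in each Banna and fine in each Gayal library, which cannot be told apart from the species. Library totals ran from 53979857 to 90313051 estimated counts. Over all genes, 14.6% differed between the batches with species in the edgeR quasi-likelihood fit (Benjamini-Hochberg adjusted p under 0.05).

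The deposited table gives identifiers without symbols. The 3 symbols were supplied with the choice of genes and were not checked against a table, since 0 identifiers matched the reference gene table. For the same reason lists of other fibre-type genes and of other cell types could not be read, and the tissue label was not checked with them. In the RefSeq cattle table, whose build is not that of the counts, MYH1 and MYH2 are direct neighbours and MYH7 lies next to MYH6, the atrial chain. The sarcomeric heavy chains are close relatives in sequence. How reads shared between such copies were counted is not given in the sources used here, so the split between MYH1 and MYH2, in particular, is uncertain.

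MYH7, the slow chain, was among the genes with the most counts in most libraries. Its level, in CPM (the count divided by the library's total after TMM scaling, on a common scale for all libraries), was 6340, 18717 and 38712 in Banna replicates 1, 2 and 3. In Gayal replicates 1, 2 and 3 it was 2324, 25001 and 23439. Over all 6 libraries the species overlapped for this and both other genes, whereas 10.4% of tested genes set the species apart. In each batch, however, every Gayal library lay below every Banna library. Such separation, Gayal lower in both batches, was seen for 15.7% of all tested genes. By count, MYH7 ranked 3 among all genes in Banna replicate 3 and 5 in Gayal replicates 2 and 3, and its lowest rank was 47, in Gayal replicate 1.

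MYH2 is the fast oxidative chain. Its level was at 1934, 238 and 8196 CPM in Banna replicates 1, 2 and 3, and at 3664, 28955 and 5336 CPM in Gayal replicates 1, 2 and 3. Gayal replicate 2 was the highest and Banna replicate 2 the lowest library. Gayal replicate 1 exceeded both Banna libraries of batch A, a pattern shared by 35.3% of tested genes. In batch B the single Banna library lay between the 2 Gayal libraries.

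MYH1, the fast chain of type 2X fibres, was at 8859, 18.3 and 19580 CPM in Banna replicates 1, 2 and 3. Levels in Gayal replicates 1, 2 and 3 were 8383, 30387 and 26144 CPM. One library stood apart: in Banna replicate 2 the count was 1692, against 470930 in Gayal replicate 1, the lowest of the other 5 libraries. In batch B both Gayal libraries lay above the Banna library, as did 31.3% of tested genes. In batch A Gayal replicate 1 lay just under Banna replicate 1 with TMM scaling (8383 against 8859 CPM) and above it with library totals alone (8759 against 7610 CPM), so its order within batch A depends on the scaling.

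**Figure D1:**
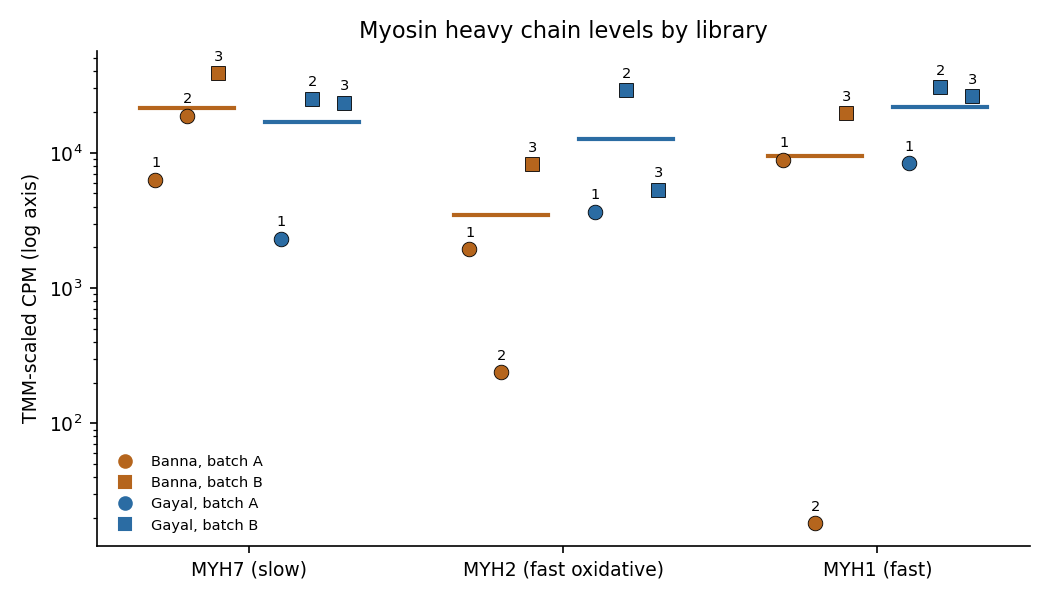
TMM-scaled CPM (log axis) of each gene in each library. Colour marks the species, circles batch A and squares batch B, numbers the replicate, and horizontal bars the mean of 3 libraries; Banna replicate 2 is at 18.3 CPM for MYH1, and all squares lie above all circles of the same gene.

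None of the 3 genes passed the test for a species difference. With batch as a term in edgeR's quasi-likelihood fit, 0.0425% of the 14112 genes were called, 6 genes in all, none of them a myosin heavy chain of this set. MYH7 averaged 16921 ± 12666 CPM over the Gayal libraries and 21257 ± 16335 CPM over the Banna libraries (SD, n = 3), with a fitted log2 difference, Gayal minus Banna, of -1.55 (SE 0.72, edgeR adjusted p = 0.655). MYH2 averaged 12652 ± 14144 CPM over the Gayal and 3456 ± 4192 CPM over the Banna libraries (SD, n = 3), and its log2 difference was 1.41 (SE 0.92, edgeR adjusted p = 0.755). For MYH1, with means of 21638 ± 11673 CPM for Gayal and 9486 ± 9796 CPM for Banna (SD, n = 3), it was 0.72 (SE 1.53, edgeR adjusted p = 0.948). The estimates were thus negative for the slow chain and positive for both fast chains, each with an error too wide for a call.

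Within the batches the signs were the same. In batch A alone, with 1 Gayal and 2 Banna libraries, the edgeR log2 differences were -2.44 for MYH7, 1.73 for MYH2 and 0.90 for MYH1. In batch B alone, with 2 Gayal libraries and 1 Banna library, they were -0.62, 1.11 and 0.59 in the same order. Each of these fits takes the species with a single library to vary like the other. The term for a species difference that changes with batch gave log2 values of 1.75 (SE 1.36) for MYH7, -0.69 (SE 2.08) for MYH2 and -0.39 (SE 3.43) for MYH1, with edgeR adjusted p of 0.866, 0.977 and 0.995. On that term edgeR called 0% of 14112 genes, with 931 genes at an unadjusted p under 0.05. DESeq2 called 248, or 1.73% of the 14319 genes with an adjusted p.

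Banna replicate 2 moved the estimates of size. Without it the species log2 difference of MYH7 was -1.002 (SE 0.31, edgeR adjusted p = 0.562), that of MYH2 1.02 (SE 0.72, adjusted p = 0.811) and that of MYH1 0.28 (SE 0.30, adjusted p = 0.885). The standard error of MYH1 thus went from 1.53 to 0.30 when this library was left out. The MYH1 difference was 2.53 (SE 1.99) without Banna replicate 1, and the MYH2 difference 0.82 (SE 1.01) without Gayal replicate 2, its highest library. MYH7 also moved without Banna replicate 3, its highest library, to -2.43 (SE 1.01), without Gayal replicate 1, its lowest library, to -0.68 (SE 0.91, edgeR adjusted p = 0.944), and without a batch term, to -0.33 (SE 1.03, adjusted p = 0.990).

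**Figure D2:**
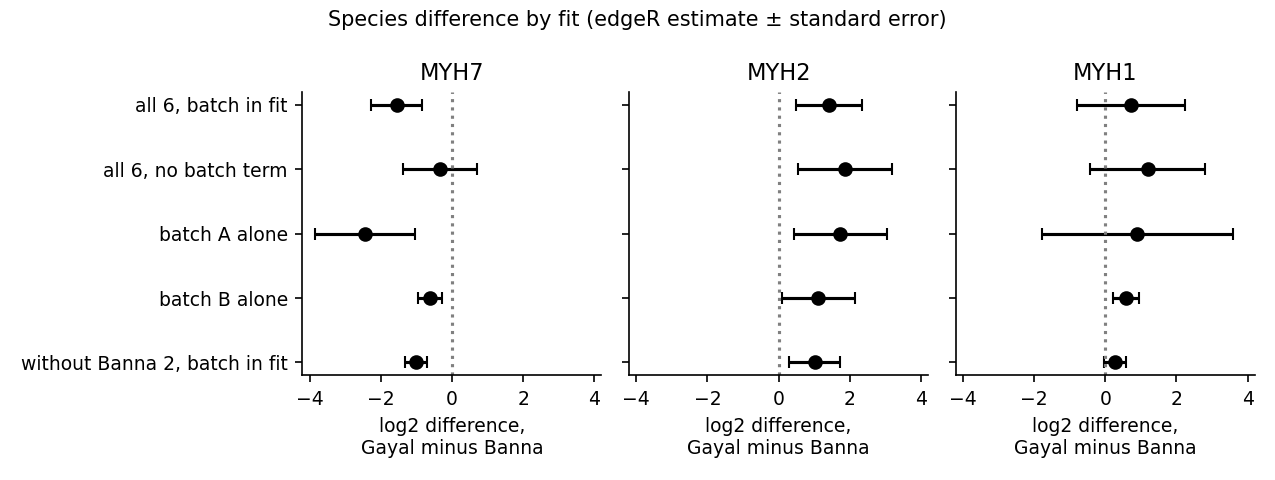
Log2 difference, Gayal minus Banna, of each gene in 5 edgeR fits; points are estimates and bars ± 1 standard error. MYH7 lies below 0 and MYH2 and MYH1 above 0 in each fit shown, from -2.44 to -0.33 for MYH7, and no value passed the adjusted threshold.

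The share of each gene in the sum of the 3 counts does not depend on library size or scaling. It is a share of counts, not divided by transcript length, which was not used here, and it is a share of RNA: fewer fibres of a type and less RNA per fibre cannot be told apart. The 95% Wilson intervals, taken on counts divided by the step at which low values piled up (3.31 to 4 counts), were at most 0.196 percentage points to either side and cover counting error only.

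The slow chain took a larger share in every Banna library than in any Gayal library of the same batch, a difference that did not pass the test. MYH7 held 37.0%, 98.6% and 58.2% of the sum in Banna replicates 1, 2 and 3, and 16.2%, 29.6% and 42.7% in Gayal replicates 1, 2 and 3. Over all 6 libraries the ranges overlapped, since Banna replicate 1 was under Gayal replicate 3, a library of the other batch. Gayal libraries averaged 29.5 ± 13.3% and Banna libraries 64.6 ± 31.3% (SD, n = 3), a difference of -35.1 percentage points (two-sided exact permutation p = 0.2). The Benjamini-Hochberg value over the 6 within-library measures tested this way was 0.45, and the smallest p of 3 libraries against 3 is 0.1. The difference was -51.7 percentage points in batch A and -22.1 in batch B. With labels permuted within the batches, the exact p was 0.222, where the smallest this design can give is 0.111. Without Banna replicate 2 the difference was -18.1 percentage points (exact permutation p = 0.3).

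MYH1 was the largest of the 3 in all Gayal libraries and in Banna replicate 1. Its share was 51.7%, 0.0963% and 29.4% in Banna replicates 1, 2 and 3, and 58.3%, 36.0% and 47.6% in Gayal replicates 1, 2 and 3. In each batch both species were separated, with Gayal higher, a comparison free of the scaling that affected the CPM in batch A. The 3 shares of a library add up to a fixed total, so this separation is not independent of that of the MYH7 share. Gayal libraries averaged 47.3 ± 11.2% and Banna libraries 27.1 ± 25.9% (SD, n = 3), a difference of 20.2 percentage points (two-sided exact permutation p = 0.3, adjusted 0.45; within batches p = 0.333). It was 32.4 points in batch A and 12.4 in batch B. Without Banna replicate 2 it came to 6.75 points, with an exact permutation p of 0.6, so most of this difference rested on that library. Without Banna replicate 1 it came to 32.6 points (exact permutation p = 0.1).

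The MYH2 share did not separate the species in both batches. It was 11.3%, 1.25% and 12.3% in Banna replicates 1, 2 and 3, and 25.5%, 34.3% and 9.72% in Gayal replicates 1, 2 and 3. Gayal replicates 1 and 2 lay above all Banna libraries, and Gayal replicate 3 lay under Banna replicates 1 and 3. Means of 23.2 ± 12.5% in Gayal and 8.29 ± 6.11% in Banna (SD, n = 3) differed by 14.9 percentage points (two-sided exact permutation p = 0.3, adjusted 0.45). The difference was 19.2 points in batch A and 9.70 in batch B (exact permutation p within batches = 0.333). Gayal replicate 2, which had the largest MYH2 share, and Gayal replicate 3, which had the smallest of its species, moved it most: it was 9.31 points without the former (exact permutation p = 0.5) and 21.6 without the latter (p = 0.1).

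The log2 of MYH7 over the sum of MYH1 and MYH2 restates the MYH7 share as a ratio, so its order over the libraries is the same by construction. It was -0.77, 6.19 and 0.48 in Banna replicates 1, 2 and 3. The values were -2.37, -1.25 and -0.43 in Gayal replicates 1, 2 and 3, so that fast counts exceeded slow counts in all 3 Gayal libraries and in Banna replicate 1. The difference, Gayal minus Banna, was -5.09 in batch A and -1.32 in batch B (exact permutation p within batches = 0.444). The means were -1.35 ± 0.98 and 1.97 ± 3.71 (SD, n = 3; two-sided exact permutation p = 0.2, adjusted 0.45). Without Banna replicate 2 the difference of the means went from -3.32 to -1.20.

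The balance of the fast chains overlapped between the species in each batch. The log2 of MYH2 over MYH1 was -2.20, 3.70 and -1.26 in Banna replicates 1, 2 and 3, and -1.19, -0.07 and -2.29 in Gayal replicates 1, 2 and 3. MYH2 exceeded MYH1 in Banna replicate 2 alone, where both were low. The difference of means, -1.27, had a two-sided exact permutation p of 0.7 (adjusted 0.7) and changed sign, to 0.54, without that library.

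**Figure D3:**
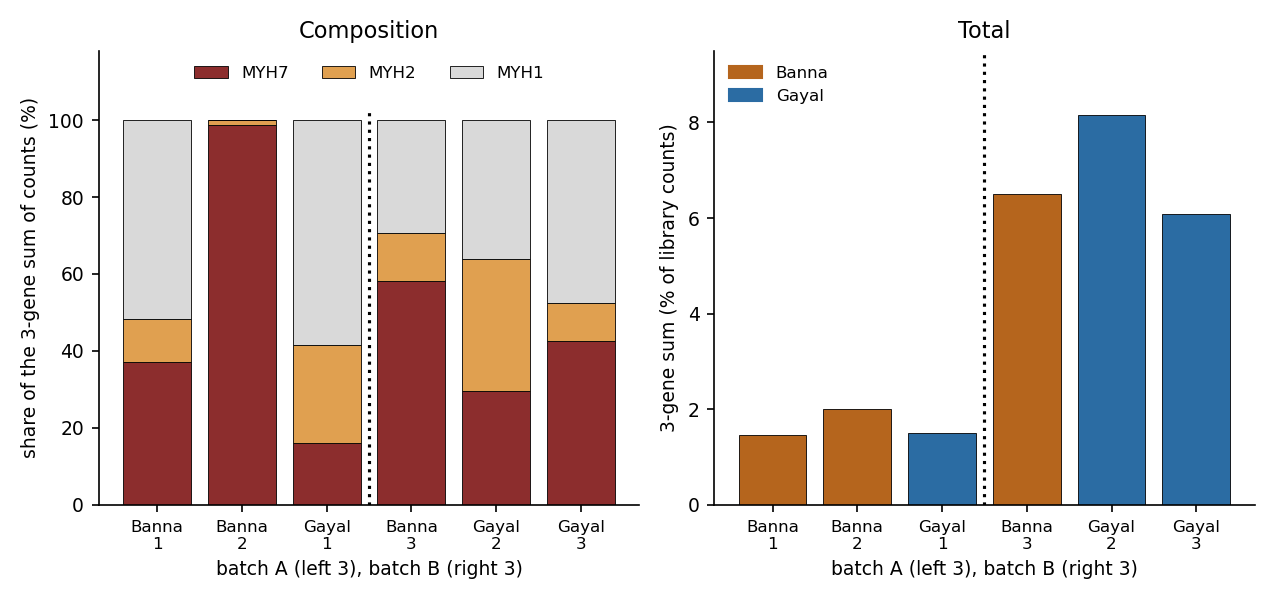
Left, share of MYH7, MYH2 and MYH1 in the sum of their counts per library (%, stacked bars); right, that sum as a percent of all counts of the library, coloured by species. The dotted line parts batch A from batch B: MYH7 makes up 98.6% in Banna replicate 2, and the sum is 1.47% to 2.01% of counts in batch A against 6.09% to 8.16% in batch B.

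The total of the 3 chains was set apart by batch, while the species overlapped. Together they held 1.47% and 2.01% of all counts in Banna replicates 1 and 2 and 1.495% in Gayal replicate 1, the libraries of batch A. In batch B they held 6.50% in Banna replicate 3, 8.16% in Gayal replicate 2 and 6.09% in Gayal replicate 3. The batches did not overlap, with means of 1.66 ± 0.31% in batch A and 6.92 ± 1.10% in batch B (SD, n = 3), a 4.17-fold ratio and an exact permutation p of 0.1, the smallest possible (adjusted 0.6 over 6 measures). By species the sum averaged 5.25 ± 3.41% for Gayal and 3.33 ± 2.76% for Banna (SD, n = 3; two-sided exact permutation p = 0.6, adjusted 0.7). Within the batches Gayal was 0.25 percentage points lower in A (difference -0.25) and 0.63 higher in B.

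Each of the 3 genes was higher in every batch B library than in every batch A library, with each of the 5 scalings run. This was so for 21.1% of all tested genes. The fitted log2 difference, batch B minus batch A with species in the edgeR fit, was 2.505 for MYH7 (SE 0.72, adjusted p = 0.0617), 2.57 for MYH2 (SE 0.96, adjusted p = 0.113) and 1.95 for MYH1 (SE 1.57, adjusted p = 0.421). None passed, beside 14.6% of all genes that did, and the median size of the batch difference over all genes was 0.83 on the log2 scale. Without Banna replicate 2, MYH7 (log2 difference 3.08, SE 0.35, edgeR adjusted p = 0.0240) and MYH1 (1.52, SE 0.31, adjusted p = 0.0414) were called higher in batch B, in a fit that called 8.38% of all genes. In the other 5 fits with a library left out none of the 3 was called; for MYH7 the log2 difference was lowest without Gayal replicate 1 (1.63, edgeR adjusted p = 0.338), and 4 of these fits called 0 genes of the whole table. MYH7 was also called by DESeq2 (2.49, adjusted p = 0.00029), beside 25.3% of all genes with an adjusted p, and by limma-voom (2.69, adjusted p = 0.0227), beside 16.7%. The step of the low values, 3.31 to 3.33 counts in batch A and 4 in batch B, moved with the batch too, and its part in the result was not tested. Dividing by the step changes each library by a constant, which scaling to library totals takes out again. The edgeR fit on divided counts (2.45 for MYH7, 2.53 for MYH2 and 1.90 for MYH1) was thus bound to stay close and cannot test the step.

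The shares, unlike the total, overlapped between the batches. MYH7 shares had means of 50.6 ± 42.9% in batch A and 43.5 ± 14.3% in batch B (SD, n = 3; exact permutation p = 0.9), and those of MYH1 were 36.7 ± 31.9% and 37.7 ± 9.19% (SD, n = 3; exact permutation p = 1.0). For MYH2 they were 12.7 ± 12.2% and 18.8 ± 13.5% (SD, n = 3; exact permutation p = 0.6). The spread in batch A came from its extremes, 16.2% MYH7 in Gayal replicate 1 and 98.6% in Banna replicate 2.

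Banna replicate 2 was thus nearly all slow chain. Its MYH7 level, 18717 CPM, lay inside the range of the other libraries and was the highest of batch A. The 3 genes together held 6.09% to 8.16% of counts in batch B and 2.01% in Banna replicate 2, the highest of batch A. MYH1 was 458-fold below the lowest of the other libraries, on CPM with a prior count of 2. Among the 5657 genes with at least 10 CPM on average, no other gene lay so far below all other libraries in this one, where 21 genes were at least 10-fold below all others and 7 at least 10-fold above. MYH2 was 8.13-fold below its next lowest library. By count MYH1 ranked 3709 in Banna replicate 2, and 3 to 21 in the other 5 libraries. Its share of the sum there, 0.0963%, had a 95% Wilson interval of 0.0883% to 0.105%.

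The 3 genes varied more between samples of one species than most genes did. The highest over the lowest Banna library was 6.11-fold for MYH7, 34.4-fold for MYH2 and 1070-fold for MYH1, against a median of 2.14-fold for the 5657 genes. For MYH1 that range was wider than in 99.9% of these genes, for MYH2 wider than in 99.1% and for MYH7 wider than in 91.3%. In Gayal it was 10.8-fold for MYH7, 7.90-fold for MYH2 and 3.62-fold for MYH1, against a median of 2.03-fold, wider than in 96.9%, 94.8% and 80.4% of these genes, and MYH1 was then the least variable of the 3. Each species spans both batches, so these ranges include the batch difference. Between the 2 Gayal libraries of batch B the levels differed only 1.07-fold for MYH7 and 1.16-fold for MYH1, but 5.43-fold for MYH2. Between the 2 Banna libraries of batch A they differed 2.95-fold for MYH7, 8.13-fold for MYH2 and 485-fold for MYH1.

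**Figure D4:**
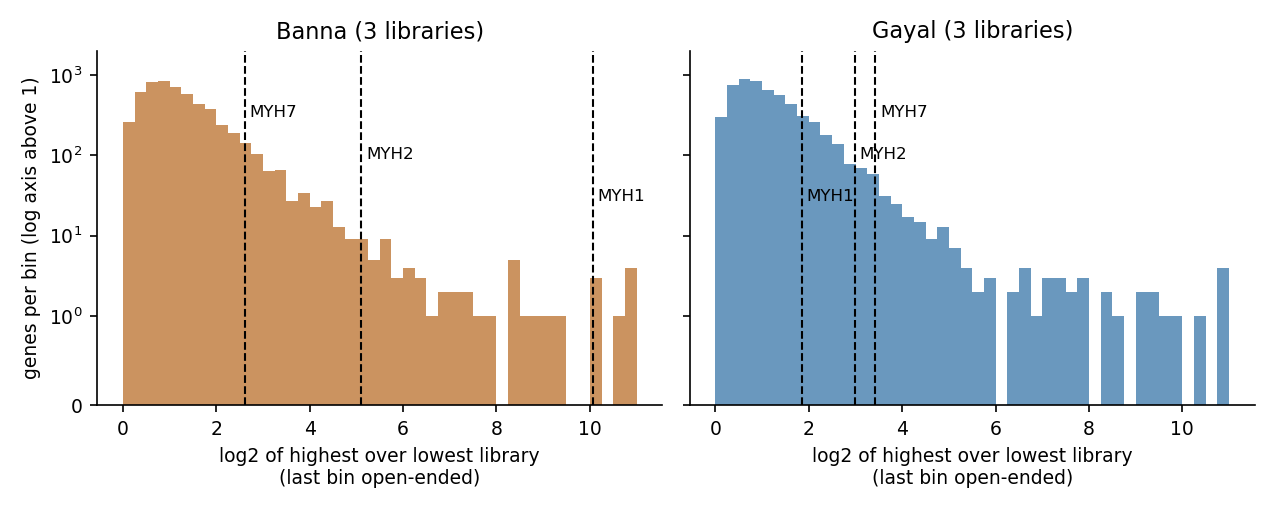
Number of genes (log axis above 1) by the log2 of the highest over the lowest library within Banna (left) and within Gayal (right), for 5657 genes of at least 10 CPM on average; the last bin pools all larger ranges. Dashed lines mark the 3 genes: MYH1 lies far to the right in Banna, at 1070-fold, and nearest to the bulk of genes in Gayal, at 3.62-fold.

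The patterns of slow and fast chain over the 6 libraries were matched by different genes. The closest to MYH7 by Pearson r of log2 CPM was ENSBTAG00000010698 (r = 0.995), which was at 12.6, 19.1 and 22.9 CPM in Banna replicates 1, 2 and 3 and at 9.97, 20.3 and 20.7 CPM in Gayal replicates 1, 2 and 3, and so kept the order of MYH7 with a narrower range, except that Gayal replicate 3 lay above replicate 2. The closest to MYH1 was ENSBTAG00000004038 (r = 0.998), at 25.6, 0.605 and 30.6 CPM in Banna replicates 1, 2 and 3 and at 22.3, 38.1 and 38.2 CPM in Gayal replicates 1, 2 and 3. It too was far lower in Banna replicate 2 than in any other library, so this r leans on that 1 library. An r over 0.95 was reached by 55 of 5654 genes for MYH7, 92 for MYH2 and 74 for MYH1. These r are descriptions over 6 libraries that share their batches, and the files pair neither identifier with a name.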

How the data were processed

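Per the labels' protocols, total RNA was taken from frozen muscle with TRIzol and sequenced as Illumina paired ends. HISAT2 2.0.4 and build ARS-UCD1.2 are listed in the submitters' processing notes, so both species were read against cattle. A difference in mapping between the species was not tested. It cannot be told apart from the species differences in CPM and in shares given above. How genes were annotated and counted, and with what strand setting, is not given in the sources used here. The deposited values are estimated counts in whole numbers, taken as such because low values pile up at multiples of a step; rounding left them unchanged. The step (3.31 to 4) was found per library from values up to 60.

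All genes were fitted with edgeR 4.0.16 in R 4.3.3: TMM factors, filterByExpr (14112 genes kept), robust quasi-likelihood F test, species and batch as terms (3 residual degrees of freedom; 2 with the interaction), Benjamini-Hochberg adjustment and a threshold of 0.05. Log2 CPM used a prior count of 2. Shares and ratios were compared with two-sided exact permutation tests. DESeq2 1.42.0 and limma 3.58.1 were alternatives. The genes named are the 3 members and, for MYH7 and MYH1, the gene with the highest Pearson r among those of at least 10 CPM on average; lists by symbol were not used because 0 identifiers matched. The members, lists and tests were chosen with earlier results of these data known, and the permutation within batches was added after seeing the shares. The RefSeq table was used only for which genes neighbour each other; coordinates and sequences are not used here.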

Additional observations from a re-analysis of the deposited data

How the results depend on the processing

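Of 108 alternative fits of the members' differences, 104 kept their direction and their side of the threshold, 4 passed a threshold that the reported value did not and 0 changed sign. No reported value had passed, so keeping its side means staying uncalled, and these fits largely reuse the same libraries. Of 67 alternatives for shares, the sum and ratios, 63 kept their direction and 4 changed sign; their tests could not reach the threshold in any of these designs. The causes were not tested. The sign changes were the sum of the 3 genes in batch A alone (-0.25 percentage points) and the log2 of MYH2 over MYH1 with counts summed over a species (0.63), in batch B alone (0.0752) and without Banna replicate 2 (0.54). The calls gained were the batch difference of MYH7 with DESeq2 (2.49; 25.3% of all genes called) and limma-voom (2.69; 16.7%) and, without Banna replicate 2, those of MYH7 (3.08) and MYH1 (1.52; 8.38%). With a library left out, species log2 differences ran from -2.43 to -0.68 for MYH7, 0.82 to 2.19 for MYH2 and 0.28 to 2.53 for MYH1, and batch differences from 1.63 to 3.39, 2.02 to 3.38 and 1.52 to 3.78. Differences of shares ran from -48.9 to -18.1 points (MYH7), 9.31 to 21.6 (MYH2) and 6.75 to 32.6 (MYH1), of the sum from 0.47 to 3.80 points, of slow over fast from -4.68 to -1.20 and of MYH2 over MYH1 from -2.41 to 0.54. For MYH1, limma-voom gave a species log2 difference of 2.67 against 0.72.

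The 6 genes called between species became 0 without a batch term, 658 with DESeq2, 13 with limma-voom, 3 with library totals, 43 without a filter, 139 in batch A alone, 12 in batch B alone and between 0 and 7 when 1 library was dropped. The 2064 called between batches became 4445 under DESeq2 and between 0 and 1258 when 1 library was dropped; the 0 of the interaction became 248 with DESeq2 and 3 without a filter. With the replicate number as a block in place of batch, edgeR called 0 genes and log2 differences were -0.59, 1.73 and 1.76 for MYH7, MYH2 and MYH1. Same-numbered libraries deviated from their species means with correlations of 0.253, -0.448 and 0.279 for replicates 1, 2 and 3. Batch was not removed first, and replicates 1 and 3 share a batch between the species while replicates 2 do not. These values therefore cannot decide whether samples were paired by number. The labels state no pairing, and for shares the smallest p of such pairs is 0.25. Shares per coding length were not run, since no lengths were used.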
